A study of Mus musculus with 9 samples.

Results

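Replication-dependent histone genes are the clustered, mostly intronless genes for the core histones H2A, H2B, H3 and H4 and the linker histone H1. They were taken from the deposited count table as the genes whose symbol names a clustered core histone gene (H2ac, H2bc, H3c or H4c with a number) or H1f1 to H1f5. The testis-specific pair H2ac1 and H2bc1 was left out of the set. This gave 60 genes among the 50493 features of the table: 5 H1, 16 H2A, 15 H2B, 12 H3 and 12 H4 genes, of which 50 lie on mouse chromosome 13 and 10 on chromosome 3. The rule uses symbols alone and no measured value. The pseudogenes H2ac14 and H2ac5-ps have matching symbols and were not analysed here.

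RNA came from 3 kinds of male germ cell of wild-type mice. Pachytene spermatocytes (PAC) are in meiotic prophase, when paired chromosomes recombine. Round spermatids (RS) are the early haploid cells made by the meiotic divisions, and elongating spermatids (ES) are later haploid cells that compact the nucleus and form the flagellum. Each cell type had 3 libraries, called biological replicates in the submitters' design text, with no treatment and no other genotype. No source used here gives the age of the mice, the isolation method or how many animals were behind a library, so the p-values measure the spread between these libraries. The series title concerns the RNA TSCL1 and the protein PIWIL1, and the labels give no question about histone genes.

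In dividing cells these genes are transcribed as DNA is copied and supply the bulk of the histones packed onto new DNA. Their mRNAs normally carry no poly(A) tail and end just after a short stem-loop, which the stem-loop binding protein SLBP holds through processing, translation and decay. Longer, polyadenylated forms of some of them are known from cells that have left the cell cycle. Spermatocytes in pachytene have already finished the last DNA replication of the lineage, and spermatids later replace most histones with transition proteins and protamines. Total RNA depleted of ribosomal RNA and primed with random hexamers, as used here, does not select for poly(A) tails, so both forms could enter the libraries.

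The stem-loop is shown for the genes on which the results turn, since it is the element that sets this family of mRNAs apart. A pattern of 16 bases, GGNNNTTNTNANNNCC read on the sense strand with 6 paired bases in its stem, was found in the annotated coding transcripts (GENCODE M21, GRCm38) of 42 of the 60 genes. Of all 58695 coding transcripts, 27 (0.046%) hold it in their last 150 bases, and they belong to 27 genes, 24 of them histone genes of the set. The capitals below mark the stem-loop, with up to 5 bases on each side, 5′ to 3′ on the strand of the gene.
H2ac18: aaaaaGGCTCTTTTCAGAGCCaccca
H2ac20: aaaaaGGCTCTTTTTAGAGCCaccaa
H2bc22: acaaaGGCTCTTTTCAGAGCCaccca
H3c15: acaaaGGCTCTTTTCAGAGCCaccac
H3c7: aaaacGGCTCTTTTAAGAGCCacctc
H4c3: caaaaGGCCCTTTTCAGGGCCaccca
H4c8: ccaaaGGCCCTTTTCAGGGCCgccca
H4c1: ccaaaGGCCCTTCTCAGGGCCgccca
H1f2: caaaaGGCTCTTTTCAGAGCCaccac
They lie at chr3:96246032-96246047 (H2ac18, plus strand), chr3:96220418-96220433 (H2ac20, minus), chr13:21787923-21787938 (H2bc22, plus), chr3:96238485-96238500 (H3c15, minus), chr13:23544932-23544947 (H3c7, plus), chr13:23698089-23698104 (H4c3, minus), chr13:23531458-23531473 (H4c8, plus), chr13:23760800-23760815 (H4c1, minus) and chr13:23739512-23739527 (H1f2, plus), each in the 3′ untranslated region. The form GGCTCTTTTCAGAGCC was shared by 24 genes of H1, H2A, H2B and H3. All 11 H4 genes with a stem-loop carried GGCCC or GGTCC at its start in place of GGCTC, most often as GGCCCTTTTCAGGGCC (6 genes). Among the other 18 genes the annotated transcript of 13 ended too soon after the stop codon for a stem-loop to be seen. None was found in H1f1, H2bc21, H2bc23, H2bc4 and H3c13, annotated with at least 30 bases after the stop codon. Those ends are still short in H3c13 (37 bases) and H1f1 (48 bases), and those of H2bc4 and H2bc23 include annotations of 2 exons. Absence of a stem-loop from H3c13, H1f1, H2bc4 and H2bc23 is therefore not shown. The single-exon transcript of H2bc21 has 2192 annotated bases after the stop codon and no match to the pattern. Stem-loops of another form were not searched for.

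Promoters of 3 genes that behaved differently are printed next, as 250 bases upstream of an annotated start (RefSeq, GRCm38.p6). The H2bc22 window runs to 21787487, just inside its annotated gene span, which starts at 21787483. H2ac18 had the highest level of the set, H4c3 the highest among H4 genes, and H2bc22 alone was called higher in RS than in PAC. The capitals mark CCAAT, the box bound by the factor NF-Y, and TATAAA, the sequence of the TATA box. Each was matched on either strand and at any place in the window, so a match need not be a working box.
H2ac18, chr3:96245247-96245496, plus strand: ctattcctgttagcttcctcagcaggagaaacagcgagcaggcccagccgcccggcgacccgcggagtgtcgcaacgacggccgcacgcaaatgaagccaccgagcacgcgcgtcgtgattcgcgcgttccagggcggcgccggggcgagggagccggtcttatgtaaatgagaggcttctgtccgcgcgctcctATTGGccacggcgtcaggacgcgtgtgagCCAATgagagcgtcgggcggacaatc
H4c3, chr13:23698459-23698708, minus strand: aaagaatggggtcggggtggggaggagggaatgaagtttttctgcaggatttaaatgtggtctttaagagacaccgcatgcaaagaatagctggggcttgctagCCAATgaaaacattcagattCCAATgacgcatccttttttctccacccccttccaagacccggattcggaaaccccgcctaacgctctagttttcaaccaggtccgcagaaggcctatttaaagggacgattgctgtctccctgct
H2bc22, chr13:21787238-21787487, plus strand: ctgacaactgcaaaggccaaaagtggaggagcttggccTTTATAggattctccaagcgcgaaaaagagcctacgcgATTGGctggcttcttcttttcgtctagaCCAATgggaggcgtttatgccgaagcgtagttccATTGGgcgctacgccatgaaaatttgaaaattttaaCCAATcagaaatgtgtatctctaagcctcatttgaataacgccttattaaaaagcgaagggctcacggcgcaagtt
H2ac18 and H4c3 each hold 2 CCAAT matches in this window and H2bc22 holds 4, with 1 TATAAA on the opposite strand near the upstream end. Of the 55 genes with a RefSeq promoter window of 300 bases, 47 held CCAAT on either strand, beside 37.4% of all 32851 promoters in the table. Every window of the 16 H2A, 13 H2B, 10 H3 and 5 H1 genes held it, and 3 of the 11 H4 windows did. TATAAA was found anywhere in the window, on either strand, in 32 of the 55 (13.6% of all promoters). The octamer ATTTGCAT, known from H2B promoters, was found in 11 (1.74% of all promoters), 5 of them H2A and 6 H2B genes.

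Total counts per library ran from 22910156 to 33801617, and the TMM scaling factors were 0.758 to 0.924 in ES against 1.03 to 1.10 in the other libraries. The labels were checked against marker lists. All 9 elongating spermatid markers (Prm1, Tnp2, Odf1 and the like) were higher in RS than in PAC and higher again in ES, and 9 of 10 pachytene markers were lower in RS than in PAC. The round spermatid list was mixed. Of its 8 markers 5 were higher and 2 lower in RS than in PAC, where 38.2% and 34.2% of all features were. In ES 3 of the 8 were higher and 4 lower than in RS, beside 24.5% and 22.1% of all features. Their summed CPM, counts scaled to the TMM-adjusted library size, was highest in ES. This sum was 1372 to 1688 in PAC, 6267 to 6966 in RS and 8510 to 19943 in ES. Markers of other testis cells were present too, as given beside the ES results below.

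The libraries numbered 3 stood apart for these genes in every cell type. PAC replicate 3 had the lowest level of its 3 libraries for 55 of the 57 genes tested, RS replicate 3 for 48 of the 56 with a count in RS, and ES replicate 3 for 44 of 57. Over all features with a count the same libraries were lowest for 38.1%, 35.8% and 35.6%. For the histone genes the median ratio of replicate 3 to the mean of the other 2 libraries was 0.545 (PAC), 0.436 (RS) and 0.743 (ES), beside 0.966, 0.999 and 0.963 for all features with a mean above 1 CPM. The labels do not say what the number marks. The counts over the whole set are also given without these 3 libraries, a setting chosen after their low histone values were seen, and so are counts by family or list that it moved by over 1.5 times.

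**Figure D1:**
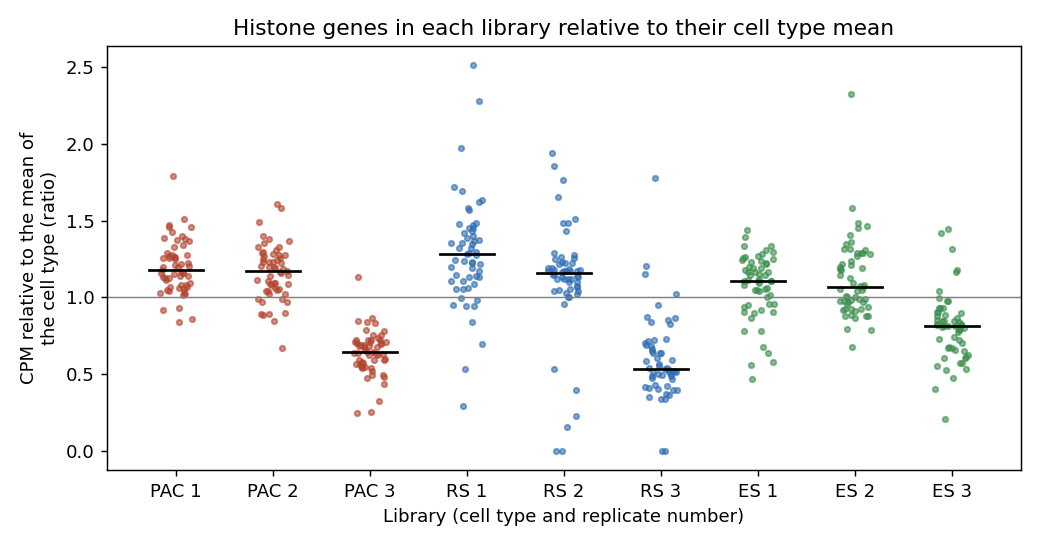
Level of each tested histone gene in each library, as the ratio of its CPM (counts scaled to the TMM-adjusted library size) to the mean of its cell type; points are genes and bars are medians. The replicate 3 libraries of PAC, RS and ES sit lowest, with most genes below 1.

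Levels are CPM, counts scaled to the TMM-adjusted library size, unless FPKM (the authors' values per length of transcript) is named. A gene was called higher or lower at a Benjamini-Hochberg adjusted p below 0.05 in edgeR's quasi-likelihood test, adjusted over all 26030 features tested. Of the 60 genes 57 had enough counts for the test. H1f5 had too few counts (8, 3 and 1 in PAC, 0, 1 and 4 in RS and 14, 11 and 3 in ES), as had H2bc9 with at most 2 counts in a library, and H4c18 had none in any library. H4c18 shares 85.6% of its stretches of 50 bases with other genes of the set.

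Near-identical sequence limits how far single genes can be told apart. The median gene shared 51.0% of its stretches of 50 bases with at least 1 other gene of the set, and 30 of the 60 shared over 50%. No source used here says how the authors treated reads that match several genes. The split of reads between H2ac18 and H2ac19 is uncertain, since every such stretch of H2ac19 and 89.2% of those of H2ac18 occur in the other gene, and their promoters share an identical run of 219 bases. They are therefore also given as a sum. The annotated span of H2bc6 overlaps the gene Gm33387.

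Which histone genes differ between spermatocytes and round spermatids was asked first. Nearly all of the set fell: 52 of the 57 tested genes were lower in RS than in PAC, from H2A, H2B, H3, H4 and H1 alike, while 34.2% of all features tested were lower. H2bc22, an H2B gene, was the 1 gene called higher, where 38.2% of all features were. The median log2 fold change was -1.98 for the histone genes and 0.11 for all features. Called either way were 53 of the 57, beside 72.5% of all features. Summed over the set, the level was 3201, 2727 and 1785 CPM in the PAC libraries, 1213, 1185 and 889 CPM in RS and 1539.6, 1388 and 1127 CPM in ES. All PAC libraries lay above all RS libraries, and the PAC mean was 2.35 times the RS mean. In these bulk samples fewer cells of a type and less RNA per cell cannot be told apart. Without the 3 libraries numbered 3 the counts were again 52 lower and 1 higher.

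The families did not fall by the same amount. By summed FPKM, which allows for length, PAC held 2567 ± 671 (SD, n = 3) in H2A, 1812 ± 588 in H4, 376 ± 91.0 in H2B, 308 ± 97.7 in H3 and 186 ± 51.8 in H1. On the CPM scale the H4 sum was 6.71 times as high in PAC as in RS and the H3 sum 6.25 times, against 2.98 times for H1, 1.79 times for H2A and 1.34 times for H2B. These differences between families were not tested. The smaller H2A and H2B ratios go with a few genes. H2ac18 and H2ac19 held 46.9% ± 1.92 of the set's summed CPM in PAC and 65.5% ± 3.81 in RS (SD, n = 3). Without them the other H2A genes were 3.85 times as high in PAC as in RS. In H2B, H2bc22 had a mean of 68.2 CPM in PAC and 129.5 in RS, where the family sums were 226 and 169.

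**Figure D2:**
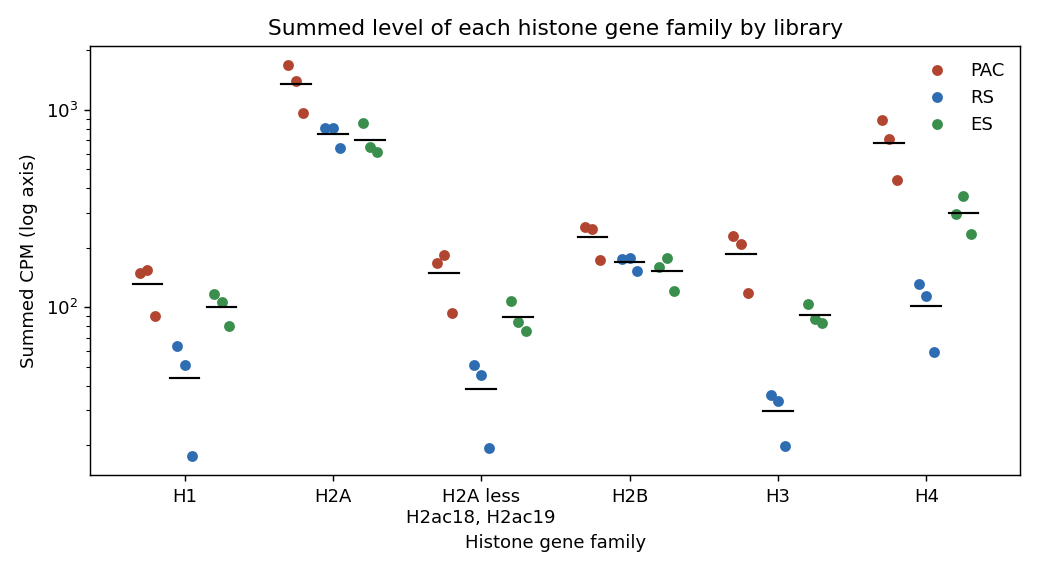
Summed CPM (log axis) of the genes of each histone family in each of the 9 libraries, coloured by cell type; points are libraries and bars are means of 3. The H3 and H4 sums of PAC lie well above those of RS, with ES between them, while the H2A sum without H2ac18 and H2ac19 falls further in RS than the sum with them.

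H2ac18, a chromosome 3 gene for H2A (ncbi_15267, chr3:96245497-96246052), had the highest level of the set, with a mean of 2056 FPKM in PAC, 1216 in RS and 837 in ES. Its CPM was 1372, 1118 and 786 in PAC, 657, 661 and 541 in RS and 666, 498 and 463 in ES. On this scale PAC did not overlap the others, and RS and ES overlapped. The log2 fold change was -0.82 ± 0.21 (SE) for RS against PAC (adjusted p = 0.00405) and -1.01 ± 0.21 for ES against PAC (adjusted p = 0.00115), both by edgeR. The first call was lost with upper-quartile scaling (-0.52, adjusted p = 0.058). ES against RS was not called (-0.19 ± 0.21, adjusted p = 0.471), but was called lower with total counts (-0.54, 0.0273) and with FPKM at a pseudocount of 0.1 or 1 (-0.54, 0.0294 and 0.0291). In FPKM the RS libraries (1299, 1289 and 1061) lay above the ES libraries (912, 829.5 and 769). Its near copy H2ac19 lay at 139, 106 and 82.6 CPM in PAC, 98.7, 103 and 78.8 in RS and 88.7, 65.3 and 69.5 in ES. There the 3 groups overlapped, and of the comparisons ES against PAC alone was called with TMM (-0.55, adjusted p = 0.0296), a call lost without PAC replicate 1 (-0.36, adjusted p = 0.111), ES replicate 2 (-0.47, 0.106) or ES replicate 3 (-0.51, 0.0715). DESeq2's test (-0.46, 0.0741), DESeq2's size factors (-0.46, 0.0766), upper-quartile scaling (-0.25, 0.337) and PAC and ES fitted alone (-0.36, 0.222) did not call it either. ES against RS (-0.33, adjusted p = 0.196) was called lower with total counts (-0.68, 0.0104) and in the 3 FPKM settings (-0.66, 0.00933 to 0.0201). Taken as a sum, the pair had 1511, 1224 and 869 CPM in PAC, 756, 764 and 620.0 in RS and 755, 564 and 533 in ES.

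H2ac20 and H2ac21, side by side at one end of the chromosome 3 cluster, were nearly absent from RS. H2ac20 (ncbi_319176) had 11.9, 9.39 and 4.65 CPM in PAC, no counts in any of the 3 RS libraries, and 0.595, 0.977 and 1.23 CPM in ES. Set against a floor of 3 counts per library (0.0866 CPM), it was at least 99.8-fold lower in RS than in PAC and at least 10.8-fold higher in ES than in RS, with adjusted p = 2.83e-06 and 0.00021 by edgeR. The medians given for groups of genes are the same with H2ac20 at this bound. H2ac21 stood at 6.03, 4.75 and 2.85 CPM in PAC and 0.324, 0.888 and 0.473 in ES, but had 1, 4 and 1 counts in RS. It fell by 6.20 ± 0.56 on the log2 scale from PAC to RS (adjusted p = 2.99e-06). Without RS replicate 2 that value was -7.05, and with a pseudocount of 1 on FPKM -3.33.

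Of the 16 H2A genes 14 were lower in RS than in PAC, with a median log2 fold change of -1.98, and none was higher. H2ac10, at 0.252 to 0.804 CPM in PAC, was the other H2A gene not called (log2 fold change -2.21 ± 0.95, adjusted p = 0.0527 by edgeR). It was called lower with DESeq2's size factors (-2.26, adjusted p = 0.0478), FPKM at a pseudocount of 0.1 or 1 (-2.02 and -0.75) and without PAC replicate 3, RS replicate 1, ES replicate 2 or ES replicate 3 (-3.08 to -2.21). H2ac23, the H2A gene next in level, had 31.7, 41.2 and 17.4 CPM in PAC, 12.96, 10.4 and 3.33 in RS and 27.3, 16.2 and 17.98 in ES. It fell from PAC to RS (-1.76 ± 0.48, adjusted p = 0.00857 by edgeR), PAC and ES overlapped, and ES against RS was not called (1.2, adjusted p = 0.0646). That last comparison was called with DESeq2's size factors (1.35, 0.0417), DESeq2's test (0.00644), RS and ES alone (1.24, 0.0432), without PAC replicate 3 (1.18, 0.0485), without RS replicate 1 (1.56, 0.0451) or without the libraries numbered 3 (0.87, 0.0307). Without the libraries numbered 3 ES was also below PAC (-0.76, 0.0345).

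H2bc22 (ncbi_319188) went the other way. It had 69.8, 78.0 and 56.7 CPM in PAC, 129, 136 and 123 in RS and 46.9, 58.2 and 42.8 in ES. All RS libraries lay above the rest, while PAC and ES overlapped. Its log2 fold change was 0.93 ± 0.16 for RS against PAC (adjusted p = 0.000303) and -1.39 ± 0.16 for ES against RS (adjusted p = 4.3e-05), and -0.47 for ES against PAC (adjusted p = 0.0218), all by edgeR. The last call was lost without PAC replicate 2 (-0.38, adjusted p = 0.0859) or ES replicate 3 (-0.39, 0.0785), and with upper-quartile scaling (-0.17, 0.392), DESeq2's size factors (-0.38, 0.0549) or PAC and ES fitted alone (-0.27, 0.259). Its annotated span, chr13:21787483-21801561, runs far beyond the histone reading frame, and the counts do not show which part of it the reads came from.

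**Figure D3:**
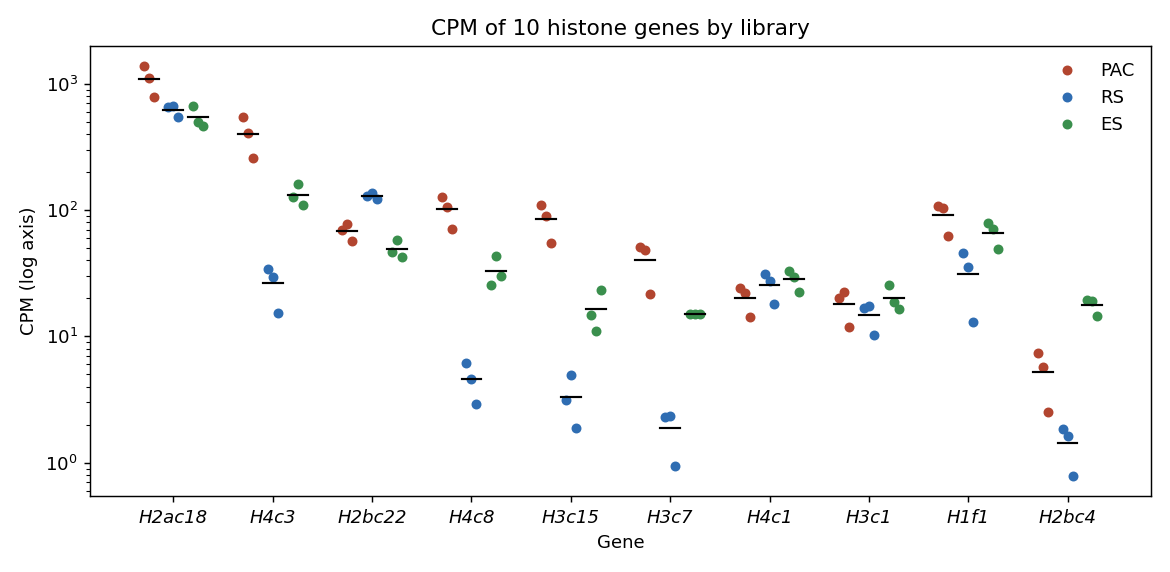
CPM (log axis) of 10 histone genes in the 9 libraries, coloured by cell type; points are libraries and bars are means of 3. H2bc22 is highest in RS, H2bc4 in ES and H2ac18, H4c3, H4c8, H3c15 and H3c7 in PAC, while the cell types overlap for H4c1 and H3c1.

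The other 13 tested H2B genes were all lower in RS than in PAC, with a family median of -1.81. H2bc21 (ncbi_319190), a gene known from olfactory neurons, fell and stayed low: 77.1, 54.7 and 51.4 CPM in PAC, 12.0, 13.7 and 17.3 in RS and 13.6, 17.7 and 13.1 in ES. PAC lay above both spermatid groups, which overlapped. The log2 fold change was -2.09 ± 0.21 for RS against PAC (adjusted p = 6e-06) and 0.04 ± 0.21 for ES against RS (adjusted p = 0.887 by edgeR). It shared no stretch of 50 bases with another gene of the set. H2bc18, at the far end of the chromosome 3 cluster, had 10.1, 11.7 and 6.74 CPM in PAC, 0.633, 0.519 and 0.321 in RS and 7.57, 7.11 and 5.11 in ES. There RS lay below both other groups, with log2 fold changes of -4.27 ± 0.32 (adjusted p = 8.93e-07) and 3.74 ± 0.32 for ES against RS by edgeR.

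H2bc4 (ncbi_68024) was the 1 gene called higher in ES than in PAC. Its level was 7.43, 5.70 and 2.52 CPM in PAC, 1.84, 1.64 and 0.789 in RS and 19.6, 19.1 and 14.4 in ES, with no overlap between any of the 3 groups. The log2 fold change was -1.88 ± 0.40 for RS against PAC, 3.63 ± 0.41 for ES against RS (adjusted p = 5.64e-05) and 1.76 ± 0.37 for ES against PAC (adjusted p = 0.00177 by edgeR). H2bc4, H2bc21 and H2bc23 are among the 5 genes with at least 30 annotated bases after the stop codon and no stem-loop found, which does not show its absence. H2bc14, the H2B gene next in level, had 25.2, 28.4 and 17.1 CPM in PAC, 9.94, 7.46 and 2.86 in RS and 16.7, 14.3 and 12.1 in ES. Its rise in ES against RS (1.09, adjusted p = 0.0367 by edgeR) was lost when RS replicate 2, RS replicate 3 or any 1 ES library was left out (0.71 to 1.19, adjusted p = 0.0514 to 0.116), with total counts (0.74, 0.126), without a filter (1.04, 0.0823) and with FPKM (0.86 to 0.92, 0.061 to 0.115). ES against PAC (-0.72, adjusted p = 0.112) was called lower with total counts (-1.02, 0.0317), FPKM at a pseudocount of 0.1 or 1 (-0.97 and -0.95), without RS replicate 3 (0.0177) and without the libraries numbered 3 (-0.81, 0.00971).

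H3 genes showed the deepest family median for RS against PAC, -2.97, with 11 of 12 lower. H3c15 (ncbi_97114, chr3:96238479-96239127), the H3 gene with the most counts, had 109.9, 90.3 and 55.0 CPM in PAC, 3.16, 4.97 and 1.90 in RS and 14.9, 11.1 and 23.4 in ES. No 2 groups overlapped. It fell by 4.66 ± 0.44 on the log2 scale from PAC to RS (adjusted p = 1.01e-05) and rose by 2.29 ± 0.41 to ES (adjusted p = 0.00127 by edgeR), leaving ES below PAC by -2.37 ± 0.39. Without the libraries numbered 3 the rise was 1.65 and the ES value against PAC -2.96. H3c7 behaved alike at a lower level: 50.9, 48.4 and 21.8 CPM in PAC, 2.32, 2.35 and 0.935 in RS and 15.08, 15.05 and 14.9998 in ES, with no overlap. Its log2 fold change was -4.43 ± 0.40 for RS against PAC and 3.01 ± 0.39 for ES against RS. H3c15 shared 63.5% of its stretches, counted as above, with H3c14, so the split of reads between them is uncertain. H3c14 had 10.98, 9.14 and 12.2 CPM in PAC, 5.27, 0.492 and 3.59 in RS and 13.2, 10.7 and 4.54 in ES. Its lowest libraries in RS and ES were the highest for H3c15, which was not so in PAC. The effect of this split on the H3c15 folds was not tested.

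H3c6 and H3c11, both on chromosome 13, had the largest rises from RS to ES among genes with counts in RS. H3c6 had 5.13, 4.35 and 2.56 CPM in PAC, 0.151, 0.382 and 0.117 in RS and 7.62, 5.20 and 4.78 in ES, a log2 fold change of 4.71 ± 0.44 for ES against RS (adjusted p = 1.1e-05 by edgeR). PAC and ES overlapped and RS lay far below both. H3c11 had 1.06, 0.914 and 0.180 CPM in PAC, 0.0603, 0 and 0.0876 in RS and 1.68, 2.09 and 0.994 in ES, a log2 fold change of 4.91 ± 0.82. Both had few counts in RS, and the H3c11 rise was 4.32 without RS replicate 2, 5.56 without RS replicate 3, 5.81 without the libraries numbered 3, and 3.85 or 1.75 on log2 FPKM with a pseudocount of 0.1 or 1. That of H3c6 was 5.39 without RS replicate 2 and 2.97 on log2 FPKM with a pseudocount of 1. H2ac8, at 0.151, 0 and 0.0292 CPM in RS, was of the same kind (3.72 ± 0.97), with 5.46 without RS replicate 1, 3.12 without RS replicate 2, and 2.73 or 0.98 on log2 FPKM with a pseudocount of 0.1 or 1.

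H3c1 and H4c1 were exceptions. H3c1 (ncbi_360198, chr13:23761885-23762386) had 20.2, 22.4 and 11.9 CPM in PAC, 16.9, 17.5 and 10.2 in RS and 25.7, 18.7 and 16.5 in ES. These groups overlapped and no comparison was called, with log2 fold changes of -0.29 ± 0.28, 0.45 ± 0.28 and 0.16 ± 0.28 for RS against PAC, ES against RS and ES against PAC. H4c1 (ncbi_326619, chr13:23760795-23761249), the next gene along the chromosome, had 24.3, 21.9 and 14.3 CPM in PAC, 31.3, 27.5 and 18.1 in RS and 33.0, 29.5 and 22.4 in ES, again overlapping. Its log2 fold change for RS against PAC was 0.34 ± 0.25 (adjusted p = 0.225 by edgeR). H4c1 was called higher in RS than in PAC with upper-quartile scaling (0.65, 0.0424), and higher in ES than in PAC with that scaling (0.79, 0.0203) and with PAC and ES alone (0.68, 0.0412). Its ES against RS value was 0.14, and was below 0, with no call, with total counts and FPKM. A value that misses the threshold does not show that the level was equal. Both sit at one end of the chromosome 13 cluster beside H1f1, which did fall.

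H4 genes were lower in RS than in PAC in 10 of 11 cases, with a median of -2.19, H4c1 being the other. H4c3 (ncbi_319155, chr13:23698084-23698458) was second in the whole set at 1125 FPKM in PAC, 76.8 in RS and 306 in ES. It had 541, 411 and 257 CPM in PAC, 33.9, 29.8 and 15.4 in RS and 126, 159.5 and 109 in ES, and the 3 groups did not overlap. The log2 fold change was -3.93 ± 0.36 for RS against PAC (adjusted p = 7.42e-06), 2.32 ± 0.34 for ES against RS (adjusted p = 0.00035) and -1.62 ± 0.33 for ES against PAC (adjusted p = 0.00148), all by edgeR. H4c8 fell further still, from 128, 106 and 71.0 CPM in PAC to 6.21, 4.59 and 2.92 in RS, and stood at 25.7, 43.0 and 29.8 in ES. Those values give log2 fold changes of -4.47 ± 0.34, 2.85 ± 0.32 and -1.63 ± 0.30, each called. H4c17 fell less, by 1.49 ± 0.42 on the log2 scale, with 75.5, 69.7 and 35.6 CPM in PAC, 28.9, 25.3 and 10.2 in RS and 47.7, 58.6 and 30.9 in ES. Its ES value against RS (1.09, adjusted p = 0.0571 by edgeR) was called with DESeq2's size factors (0.0345), DESeq2's test (0.00494), the stricter filter (0.044), RS and ES alone (0.034), without PAC replicate 3 (0.0353), without ES replicate 3 (0.046) and without the libraries numbered 3 (0.00334). It shares 89.8% of its stretches of 50 bases with H4c18, the gene without counts.

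The 4 tested linker histone genes all fell from PAC to RS, with a median of -1.68. H1f1 (ncbi_80838), known as a histone gene of testis and thymus, had 108, 105 and 62.8 CPM in PAC, 45.6, 35.6 and 12.9 in RS and 78.8, 70.7 and 49.0 in ES. PAC and ES overlapped and RS lay below both. Its log2 fold change was -1.55 ± 0.42 for RS against PAC (adjusted p = 0.00797) and 1.08 ± 0.41 for ES against RS, which was not called (adjusted p = 0.0579 by edgeR). It was called with DESeq2's size factors (1.22, 0.0356), DESeq2's test (1.22, 0.00502), the stricter filter (1.09, 0.0446), RS and ES alone (1.11, 0.0461), without RS replicate 1 (1.43, 0.0288) and without the 3 libraries numbered 3 (0.86, 0.00539). H1f2 had 34.7, 41.1 and 23.3 CPM in PAC, 15.3, 13.3 and 3.77 in RS and 30.8, 27.5 and 25.2 in ES, and its rise in ES (1.37, adjusted p = 0.0265 by edgeR) was lost without ES replicate 1 (1.29, 0.0792) or 2 (1.37, 0.058), with total counts (1.03, 0.0753), without a filter (1.32, 0.0816) and with unfiltered FPKM (1.26, 0.0646). H1f3 (0.526 to 4.97 CPM) and H1f4 (0.350 to 3.79 CPM) were scarce and were lowest in RS. H1f3 rose by 1.55 in ES (adjusted p = 0.0175 by edgeR), a call lost without RS replicate 3, ES replicate 1 or ES replicate 2 (1.22 to 1.45, adjusted p = 0.0507 to 0.07) and with unfiltered FPKM (1.19, 0.0824). H1f4 fell by 1.89 ± 0.35 and rose by 2.24 ± 0.36 on the log2 scale.

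Between round and elongating spermatids the direction turned for much of the set. Of the 57 genes 37 were higher in ES than in RS, where 24.5% of all features were, and 1, H2bc22, was lower, where 22.1% of all features were. The median log2 fold change was 1.48, beside 0.05 for all features. H2B and H3 had most of the rises, 11 of 14 and 9 of 12, followed by 8 of 16 H2A, 6 of 11 H4 and 3 of 4 H1 genes (5 of 5 H1 genes without the libraries numbered 3). Without the libraries numbered 3 the counts were 40 higher and 1 lower. With scaling by total counts 29 were higher and 3 lower, at a median of 1.14, while over all features 4292 were higher and 8191 lower in place of 6374 and 5752, and their median moved to -0.28. The summed level of the set was 1.23 times as high in ES as in RS with TMM, and 0.973 times with total counts. With H2ac18 and H2ac19 left out the sum was 1.92 times as high in ES with TMM and 1.52 times with total counts. The H3 sum was 3.08 times and the H4 sum 2.96 times as high in ES as in RS, while the H2A and H2B sums were 0.939 and 0.906 times (0.737 to 1.004 and 0.719 to 0.999 with total counts, FPKM or a library left out).

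All 37 genes that rose in ES had fallen in RS. Their ES mean was a median of 83.6% of their PAC mean, from 10.8% to 339%, and 9 were above 100%. Of the genes listed as testis histone variants 4 also fell and rose: H1f6, the testis linker histone H1t, was at 16.1% of its PAC mean in ES, H2bc1 at 21.98%, H2ac1 at 25.4% and H2bu2 at 58.7%. The 10 pachytene markers ranged from 18.6% (Tex101) to 86.6% (Ldhc), with Piwil1, the PIWI protein that binds pachytene piRNAs, at 19.04%. These shares of the PAC mean were not tested against each other. Of the pachytene markers 4 were called higher and 1 lower in ES than in RS, beside 24.5% and 22.1% of all features. The median log2 fold change of the pachytene markers there was 0.33. The 37 genes were picked for a called rise in ES, which favours high ES values, and the pachytene markers were not. Their fall and their rise were also called against the same RS libraries. Over all 57 tested histone genes the median log2 fold change for ES against PAC was -0.47.

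Sertoli, Leydig and macrophage and blood markers were mostly higher in ES than in RS, where 24.5% of all features were. The summed spermatogonial and preleptotene markers were lower. Their median log2 fold change was nevertheless 1.01 for ES against RS and 0.41 for ES against PAC. Of the 10 tested Sertoli markers (Clu, Wt1, Sox9 and the like) 9 were higher in ES than in RS, and the list summed to 83.6 to 103 CPM in PAC, 33.4 to 37.1 in RS and 281 to 324 in ES, with Amh and Fshr at 0 in RS. All 7 Leydig markers were higher in ES than in RS, at 88.5 to 122 CPM in PAC, 1.86 to 2.19 in RS and 18.4 to 24.3 in ES, with Lhcgr at 0 in RS. Macrophage and blood markers, 6 of 8 higher, summed to 4.25 to 5.91, 13.6 to 16.1 and 134 to 215 CPM, most of it in ES from the globin genes Hbb-bs and Hba-a1. Spermatogonial and preleptotene markers, 6 of 13 higher and 2 lower, summed to 668 to 771 CPM in PAC, 449.9 to 489 in RS and 306 to 332 in ES. Peritubular and vascular markers, 2 of 5 higher, ran from 4.90 to 5.88 CPM in PAC, 9.94 to 18.02 in RS and 16.8 to 20.96 in ES, with Col1a1 at 0 in PAC. Their part in the ES values of the histone genes, and that of the Leydig and Sertoli markers in PAC, was not tested.

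Against PAC, ES was lower for 17 of the 57 genes, where 33.7% of all features were lower, and higher for 1, H2bc4, where 30.6% were. The share lower is therefore near that of all features, and 18 were called either way, where 64.4% of all features were. For ES against RS it was 38, beside 46.6%. The median log2 fold change was -0.47 for the histone genes and -0.09 for all features. By family 7 of 16 H2A, 5 of 11 H4, 3 of 14 H2B, 2 of 12 H3 and none of the 4 H1 genes were lower, and without the libraries numbered 3 they were 12, 5, 4, 3 and 1. The count of 17 was 11 without PAC replicate 1 or without ES replicate 3, and 25 without the 3 libraries numbered 3. With upper-quartile scaling 10 were lower and 2 higher, and over all features 6931 were lower and 9528 higher in place of 8778 and 7976. All 3 comparisons share groups of libraries, so their values are not independent of each other.

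Set side by side, the calls made a few patterns. The most frequent, in 26 genes, was lower in RS than in PAC and higher in ES than in RS with no call between ES and PAC. A further 10 genes (H2ac15, H2ac20, H2ac21, H2bc7, H3c15, H3c7, H4c2, H4c3, H4c4 and H4c8) had the same fall and rise but stayed below PAC in ES. In 5 genes (H2ac12, H2ac18, H2ac24, H2bc21 and H4c9) the level fell in RS, showed no call from RS to ES and was below PAC in ES, and in 10 the fall in RS was the only call. H2bc4 fell, rose and passed PAC, H2bc22 rose and then fell, H2ac19 was called in ES against PAC alone, and H2ac10, H3c1 and H4c1 had no call.

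**Figure D4:**
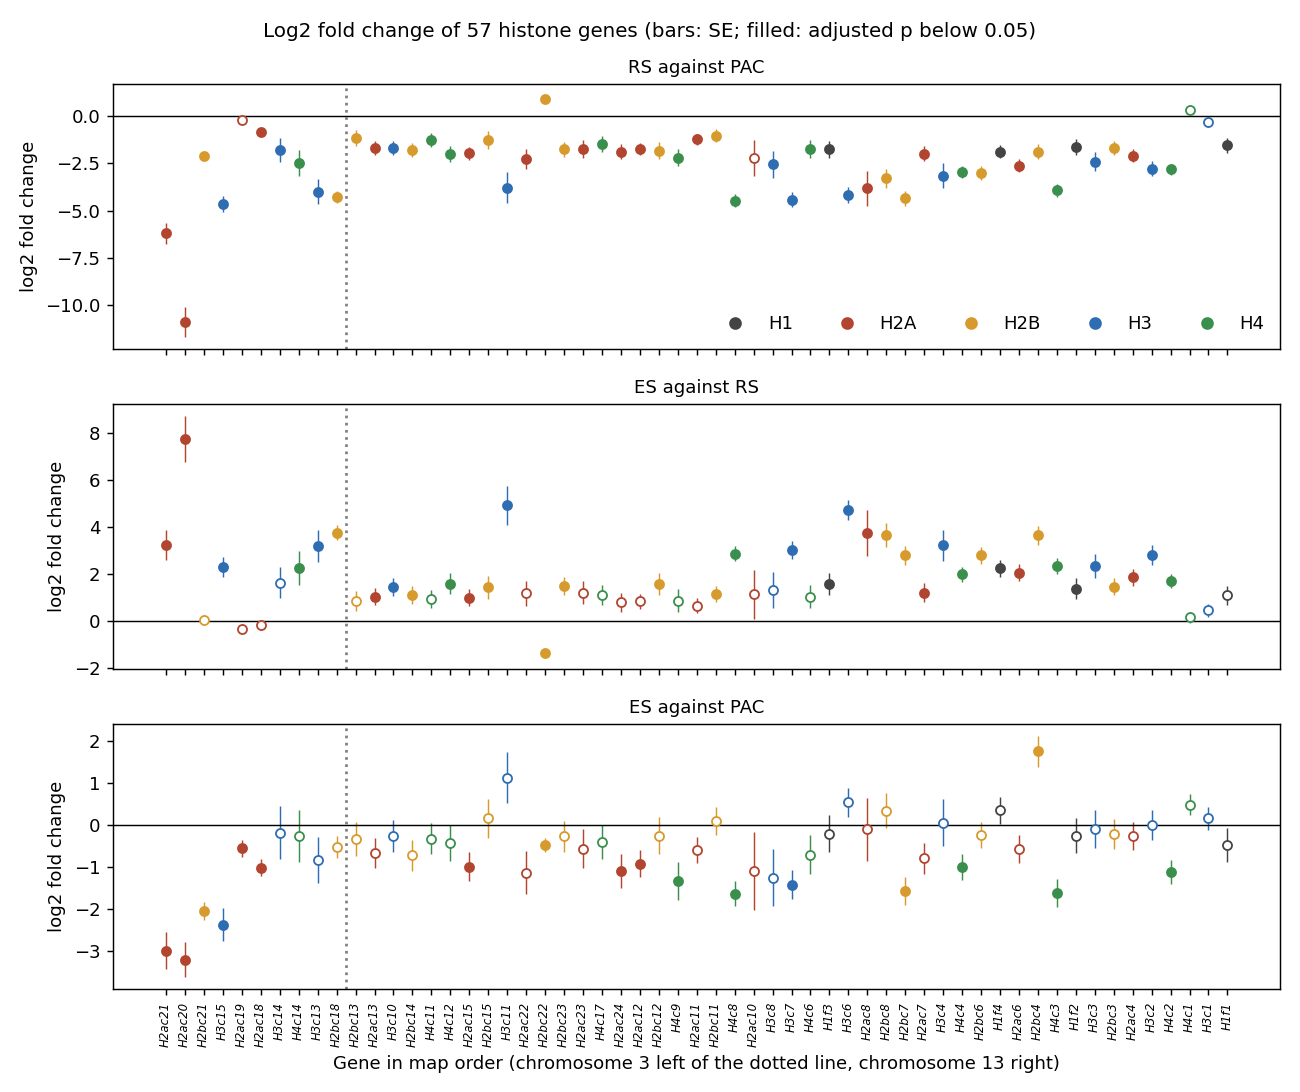
Log2 fold change (edgeR) of the 57 tested histone genes for RS against PAC, ES against RS and ES against PAC, in map order with chromosome 3 left of the dotted line; bars are standard errors, colours are families and filled points are called. The fitted values of H2ac20 have no counts in RS behind them and are no bound. Apart from H2bc22, H4c1 and H3c1 every point of chromosome 13 is at -1.03 or below for RS against PAC, and the ES values return towards 0 against PAC.

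Position and transcript ends were compared as a description. The 10 tested genes of chromosome 3 had a median log2 fold change of -3.24 for RS against PAC with 9 lower, and the 47 of chromosome 13 a median of -1.89 with 43 lower. For ES against PAC 6 of the 10 chromosome 3 genes and 11 of the 47 chromosome 13 genes were lower (6 of 10 and 19 of 48 without the libraries numbered 3). Genes whose annotated transcript ends within 100 bases of the stem-loop (22 tested) had a median of -1.81 for RS against PAC and 1.19 for ES against RS. Those whose annotated transcript runs on further (18 tested), such as H4c3, where 454 bases follow the stem-loop, had medians of -2.79 and 2.24. The 5 in which no stem-loop was found had -1.88 and 1.48, and the 12 with too short an annotated end -1.98 and 1.29. Annotated ends are not measured here, and the deposited gene counts do not separate processed from polyadenylated forms.

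Most genes for making and processing histone mRNAs were lower in RS as well. Of 19 tested genes for histone mRNA transcription and processing 16 were lower in RS than in PAC and 1 was higher, with a median log2 fold change of -1.21, beside 34.2% lower and a median of 0.11 over all features. Slbp itself, the stem-loop binding protein, had 239.6, 206 and 185 CPM in PAC, 83.9, 83.9 and 81.5 in RS and 70.7, 90.8 and 76.9 in ES, a log2 fold change of -1.34 ± 0.14 for RS against PAC (adjusted p = 9.38e-06 by edgeR). PAC did not overlap the others, and Slbp did not rise with the histone genes in ES (-0.06 ± 0.14, adjusted p = 0.736). Npat, the activator of histone gene transcription, fell from a mean of 42.5 to 17.7 CPM, Zfp473, a zinc finger protein of the U7 processing complex, from 16.3 to 2.42, and Upf1, a helicase used in histone mRNA decay, from 146 to 18.1. Cstf2, a 3′ end cleavage factor, was the gene that rose, from 34.6 to 103 CPM. In ES 3 of the 19 were higher than in RS (Zfp473, Snrpb and Upf1) and 3 lower (1 without the libraries numbered 3), and 15 were lower than in PAC. Over all features these shares were 24.5%, 22.1% and 33.7%.

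Many replication genes and histone chaperones were lower in RS than in PAC too. Of 35 tested genes of S phase and DNA replication 23 were lower in RS than in PAC and 1, Fen1, was higher, with a median of -0.75. Over all features 34.2% were lower and 38.2% higher, with a median of 0.11. Pcna, the sliding clamp of DNA polymerases, fell from a mean of 248 to 127 CPM, and Ccne2, cyclin E2, from 122 to 6.53. From RS to ES 13 of the 35 were higher and 4 lower (24.5% and 22.1% of all features), and 23 were lower in ES than in PAC (33.7% of all features). Of 13 histone chaperones and their partners, with a median of -0.81, 7 were lower in RS, among them Nasp (372 to 194 CPM), Asf1b (7.24 to 1.59) and Supt16 (47.9 to 5.92), and Hat1, the acetyltransferase of newly made H4, was higher (30.8 to 61.2). In ES 5 of them were higher and 2 lower than in RS (3 and 1 without the libraries numbered 3), beside 24.5% and 22.1% of all features.

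Histone genes outside the set gave a reference for these values. Over all features 34.2% were lower and 38.2% higher in RS than in PAC, and 24.5% higher and 22.1% lower in ES than in RS. Of 12 tested genes listed as replacement histones 8 were lower in RS than in PAC and none was higher. H2ax, the histone phosphorylated at DNA breaks, fell from 219 to 11.4 CPM, H2az1 from 895 to 361 and H3f3b from 115 to 63.5. H3f3a, the other H3.3 gene, showed no call (239.7 to 272). The list also holds H4f16, an H4 gene that the symbol rule does not match. Listing alone does not show that a gene is expressed apart from DNA replication. In ES 2 of the 12, H2ax and H4f16, were higher than in RS, and H3f3a was lower (3 higher and 3 lower without the libraries numbered 3). Of 12 tested genes listed as testis histone variants 7 were higher in RS and 5 lower; the list also holds H2bu2, which is not specific to testis. The risers included the spermatid genes Hils1 (282 to 1236 CPM) and H2al2a (48.4 to 346), and the fallers H1f6 (1699 to 16.7 CPM) and H2bc1 (606 to 12.3). From RS to ES 9 of the 12 were higher and 1 was lower.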

How the data were processed

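The authors deposited a table of estimated counts per feature for the 9 libraries, not normalised; 18.85% of its values are not whole, so counts were rounded. The authors also deposited FPKM values, counts per length and library size, used here for levels between genes and as an alternative. Per the labels' protocols the libraries were strand-specific (dUTP) from total RNA without ribosomal RNA. Per the submitters' processing notes HISAT2, StringTie and GRCm38.p6 were used; no source used here gives versions, the counter, the annotation or whether counting used strand.

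Of 21877 NCBI gene rows 21726 had a symbol in a RefSeq table of GRCm38.p6. Features with enough counts (edgeR's filterByExpr, minimum count 10) numbered 26030. Libraries were scaled by TMM, and one quasi-likelihood fit (robust, two-sided) over the 3 cell types gave each pairwise test. A floor is 3 counts per library, for counting error only. Alternatives were other scalings, filters (minimum count 30 or none), DESeq2, limma on log2(FPKM + 0.1) or log2(FPKM + 1), counts not rounded, 2 cell types alone, the replicate number as a block, and each library left out.

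Over all features tested the replicate numbers showed little pairing: 3 of 9 correlations of deviations between libraries of the same number were over 0.1. The low level of the histone genes in the libraries numbered 3 was not modelled in the main fit. Named genes were the 3 with the highest mean CPM in each core family, all H1 genes, and the 5 largest called changes in each direction of each comparison. H4c1, H2ac10 and some genes of the other lists were named after their values were seen. The symbol rule uses no measured value, but it and the marker lists were set with earlier results of these data known. Stem-loops and shared stretches came from GENCODE M21 transcripts and promoters from RefSeq. Fits ran in DESeq2 1.42.0, limma 3.58.1 and edgeR 4.0.16 under R 4.3.3. Tables and plots came from Python 3.11.15 with matplotlib 3.10.9 and pandas 2.3.3.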

Additional observations from a re-analysis of the deposited data

How the results depend on the processing

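Over 75 results on named genes no alternative reversed a called direction: of 1635 values 1546 kept their call, 57 gained one and 32 lost one. The histone genes lower in RS than in PAC numbered 48 to 53 with 1 library left out, and 1 was higher in each case. Those higher in RS were 2 with upper-quartile scaling and 2 with the replicate block. Higher in ES than in RS were 28 to 41 with 1 library left out (28 without ES replicate 2), and lower were 3 with total counts, 3 with FPKM at a pseudocount of 0.1 or 1, and 2 with FPKM unfiltered. Over all features ES against RS gave 4114 higher and 8674 lower with FPKM at 0.1, 3975 higher with FPKM unfiltered and 8934 lower at a pseudocount of 1. Lower in ES than in PAC were 11 to 23 with 1 library left out and 10 with upper-quartile scaling, and higher were 2 with upper-quartile scaling, with PAC and ES alone and with the block. The replicate number as a block gave 55, 49 and 25 called histone genes for the 3 comparisons in place of 53, 38 and 18, and all of those 53, 38 and 18 were among them. With the block H3c1 was called for ES against RS (0.47, adjusted p = 0.0427) and H4c1 for RS against PAC (0.34, 0.0431) and ES against PAC (0.51, 0.00763), both higher. H2ac23 (1.37, 0.00663), H4c17 (1.17, 0.000221) and H1f1 (1.2, 0.000719) were then also called higher in ES than in RS. H2ac10 was called lower for RS against PAC (-2.33, 0.0256), and H2bc14 (-0.69, 0.0244) and H2bc18 (-0.52, 0.0348) lower for ES against PAC. Over all features tested the numbers showed little pairing (correlations -0.0397 to 0.273, and 8 of 18 comparisons best with the own number). The histone genes, though, were low in the libraries numbered 3 of every cell type. The cause of these shifts was not tested. Low counts in RS limit the size of the folds of H2ac20, H2ac21, H2ac8 and H3c11.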
